A study of Homo sapiens with 6 samples.

Results

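The genes described here are 10 feedback genes and transcriptional outputs of RAS-ERK signalling. They are the dual specificity phosphatase genes DUSP1, DUSP4, DUSP5 and DUSP6, the Sprouty genes SPRY2 and SPRY4, the Sprouty-related genes SPRED1 and SPRED2, PHLDA1 and the transcription factor gene ETV5. They were taken by symbol from the 16910 gene rows of an RNA-seq table, and each symbol matched 1 row. The table holds 6 libraries of TOV21G, an established ovarian clear cell carcinoma cell line, in 3 groups of 2. The group NC is labelled wild type, and what NC stands for is not spelled out. siGYS1 is labelled as a knockdown of GYS1 (the muscle-type glycogen synthase) and sip53 as a knockdown of p53. The labels do not say how or for how long the cells were treated, nor whether replicates were separate cultures. The p-values therefore measure only the spread between these libraries.

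ERK is the last kinase of a cascade that runs from growth factor receptors through RAS, RAF and MEK. Active ERK switches on genes whose products act back on the cascade. Dual specificity phosphatases remove the activating phosphates from ERK and its relatives p38 and JNK, while Sprouty and SPRED proteins act upstream, at the level of receptors and RAS. The transcripts of these genes are commonly read as a measure of ERK output, and ETV5 belongs to the ETS factors that ERK signalling induces. Only transcripts are measured here. ERK phosphorylation is not analysed here.

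The 6 libraries held 17425000 to 18097337 reads in the table, and mitochondrial transcripts took 4.81% to 6.0% of them. GYS1 was at 28.6 and 27.3 FPKM in the NC libraries, 1.69 and 1.67 with siGYS1, and 30.4 and 31.4 with sip53, so the siGYS1 label holds. FPKM is the read count scaled by transcript length and library size. Among the epithelial and clear cell markers, PAX8 had a mean of 150 FPKM in NC, but NAPSA was at 0.445. Leukocyte markers summed to at most 1.11 and endothelial markers to at most 1.53 FPKM in any library. Fibroblast markers summed to 7.72 to 14.7 FPKM, nearly all of it COL1A1.

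All 10 genes passed the filter on low counts, and their read counts ran from 297 to 7753 per library. Counting error alone is 5.8% of the lowest of these counts and 1.14% of the highest. Fold changes below are edgeR estimates on read counts, given as log2 with a standard error (SE). The test was edgeR's quasi-likelihood test, with p adjusted by Benjamini-Hochberg over all 13235 tested genes, and "changed" means an adjusted p below 0.05. With siGYS1, 4 of the 10 genes changed against NC, where 19.7% of all tested genes did. DUSP5 rose (10.4% of all tested genes rose), and DUSP6, SPRY2 and ETV5 fell (9.24% of all fell). With sip53, 7 of 10 changed against a background of 49.9%. DUSP1, DUSP4, DUSP5, SPRY4 and ETV5 rose (background 23.4%), and DUSP6 and SPRY2 fell (background 26.5%). CPM is the read count scaled to the library total times a scaling factor for each library (TMM). On CPM, the groups did not overlap for 7 of the 10 with siGYS1 (58.8% of all tested genes) and 9 of the 10 with sip53 (78.6%). DUSP1 is among the 7, although its FPKM overlapped between NC and siGYS1. The median log2 fold change of the 10 genes was -0.10 with siGYS1 and 0.29 with sip53, beside -0.01 and -0.03 over all tested genes. The 2 comparisons share the NC libraries, so their values are set side by side and the knockdowns are compared with each other directly.

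**Figure D1:**
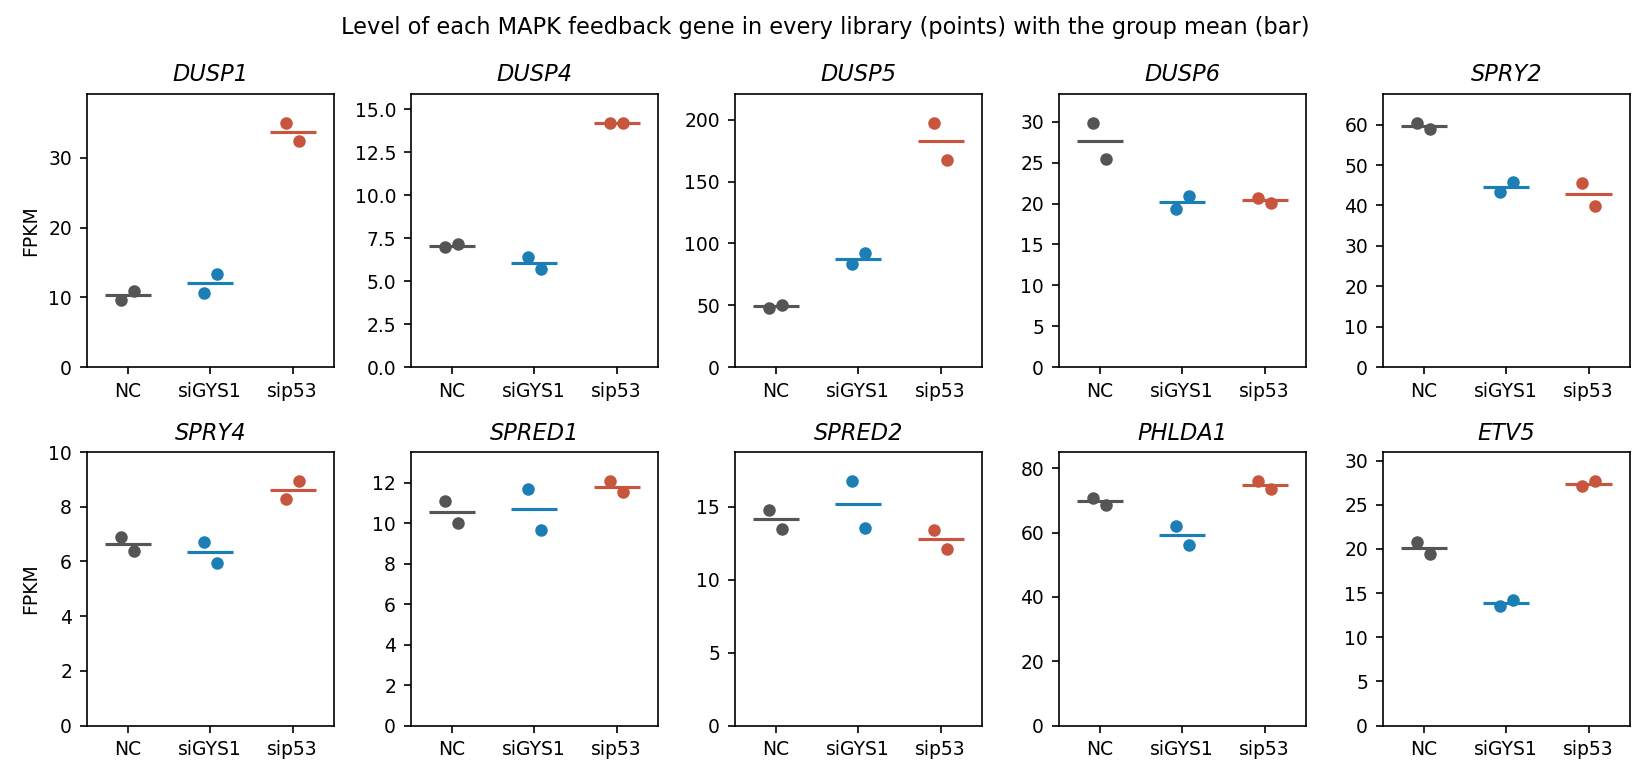
Level of each of the 10 genes in FPKM (vertical axis, from 0) in NC, siGYS1 and sip53; points are the 2 libraries of a group and the bar is their mean. DUSP1, DUSP4 and DUSP5 are highest with sip53, DUSP6 and SPRY2 are highest in NC, and ETV5 is lowest with siGYS1 and highest with sip53.

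The inducible nuclear phosphatase genes DUSP1, DUSP4 and DUSP5 were the members with the largest rises, all with sip53. DUSP5, whose product dephosphorylates ERK in the nucleus, was at 48.1 and 50.3 FPKM in NC, 83.6 and 92.0 with siGYS1, and 198 and 168 with sip53. The 3 groups did not overlap, and each was above the one before it. DUSP5 rose 1.86-fold with siGYS1 (log2 0.90, SE 0.10, adjusted p = 0.000575) and 3.97-fold with sip53 (log2 1.99, SE 0.105, adjusted p = 9.52e-07). The difference between both knockdowns passed as well, at log2 -1.09 for siGYS1 against sip53 (SE 0.10, adjusted p = 3.29e-05). Only 2.15% of all tested genes had a larger log2 rise than DUSP5 with siGYS1, and 1.7% with sip53. The calls of DUSP5 held in each of the 15 alternative settings, with log2 values from 0.82 to 0.96 for siGYS1 and 1.87 to 2.10 for sip53.

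DUSP1 encodes a phosphatase that acts on p38 and JNK as well as ERK. It was at 9.63 and 10.9 FPKM in NC, 10.6 and 13.4 with siGYS1, and 35.0 and 32.4 with sip53. In FPKM the NC and siGYS1 libraries overlapped, and both sip53 libraries stood far above them. DUSP1 rose 3.52-fold with sip53 (log2 1.81, SE 0.12, adjusted p = 4.2e-06). With siGYS1 it did not pass (log2 0.29, SE 0.13, adjusted p = 0.148, 95% interval -0.0038 to 0.58). Without siGYS1 replicate 1 that value was 0.44 and passed (adjusted p = 0.0246), and without siGYS1 replicate 2 it was 0.13 (adjusted p = 0.489). Both knockdowns differed from each other (log2 -1.53 for siGYS1 against sip53, SE 0.12, adjusted p = 1.35e-05).

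DUSP4, whose nuclear product dephosphorylates ERK and JNK, was at 6.96 and 7.16 FPKM in NC, 6.41 and 5.68 with siGYS1, and 14.2 and 14.2 with sip53. Its sip53 libraries were the highest and the siGYS1 libraries the lowest, with no overlap. The rise with sip53 was 2.15-fold (log2 1.10, SE 0.09, adjusted p = 1.38e-05). The value with siGYS1 did not pass (log2 -0.17, SE 0.10, adjusted p = 0.24). Between the knockdowns the difference was log2 -1.27 (SE 0.09, adjusted p = 8.1e-06).

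The promoter of DUSP1 is shown because this gene had a large rise with sip53 and its window holds a dense set of one motif. RefSeq promoter windows (GRCh38.p14) were found for 7 of the 10 genes, 10 windows in all. DUSP4, DUSP5 and ETV5, which were among the genes that changed most, had no window. The 250 bases before each transcription start were searched on both strands. The search took 6 motifs that are common in promoters of induced genes. TGACG is the core of the cAMP response element, to which CREB and ATF factors bind. The site of AP-1, the dimer of FOS and JUN proteins, was searched as TGACTCA. For the ETS factors, the family of ETV5, the core CCGGAA was taken. The others were the SP1 box GGGCGG, the TATA box as TATAAA, and the CArG box of the serum response factor by its name. The window of DUSP1 is chr5:172771196-172771445 on the minus strand, and it overlaps no annotated exon of GENCODE 29. Motif matches are in capitals, and neighbouring or overlapping matches run together:
DUSP1: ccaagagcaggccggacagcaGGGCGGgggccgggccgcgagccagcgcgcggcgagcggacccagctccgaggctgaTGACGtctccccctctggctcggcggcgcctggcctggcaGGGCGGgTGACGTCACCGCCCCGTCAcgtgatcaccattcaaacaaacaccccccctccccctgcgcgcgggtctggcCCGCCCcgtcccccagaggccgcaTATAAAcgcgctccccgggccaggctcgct
TGACG matched 4 times in this window, 172, 125, 122 and 111 bases before the start. Of all 35116 windows, 21.2% hold TGACG at least once and 0.236% hold it 4 or more times. The cutoff of 4 is the count of this window, which was picked for its matches, so the 0.236% is a description and not a test. A link of the motif to the rise with sip53 was not tested. The matches at 125 and 122 belong to the palindrome TGACGTCA, which 1.65% of windows hold. GGGCGG matched 4 times (42.6% of windows hold it) and TATAAA once, 30 bases before the start (10.7% of windows). A match is a description of the letters and not evidence of binding.

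DUSP6, whose cytoplasmic product is specific for ERK, moved the other way. It was at 29.9 and 25.4 FPKM in NC, 19.4 and 20.9 with siGYS1, and 20.7 and 20.1 with sip53. Both NC libraries were above all 4 knockdown libraries, and the knockdowns overlapped each other in FPKM. DUSP6 fell to 72.6% of NC with siGYS1 (log2 -0.46, SE 0.09, adjusted p = 0.00665) and to 73.7% with sip53 (log2 -0.44, SE 0.09, adjusted p = 0.00236). Both calls held in each of the 15 alternative settings. The difference between the knockdowns did not pass (log2 -0.02, SE 0.09, adjusted p = 0.865, 95% interval -0.22 to 0.18). The promoter window of DUSP6 held none of the 6 motifs. It lies wholly within an exon of an annotated transcript of DUSP6 itself, so it is not upstream of every annotated start of this gene.

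**Figure D2:**
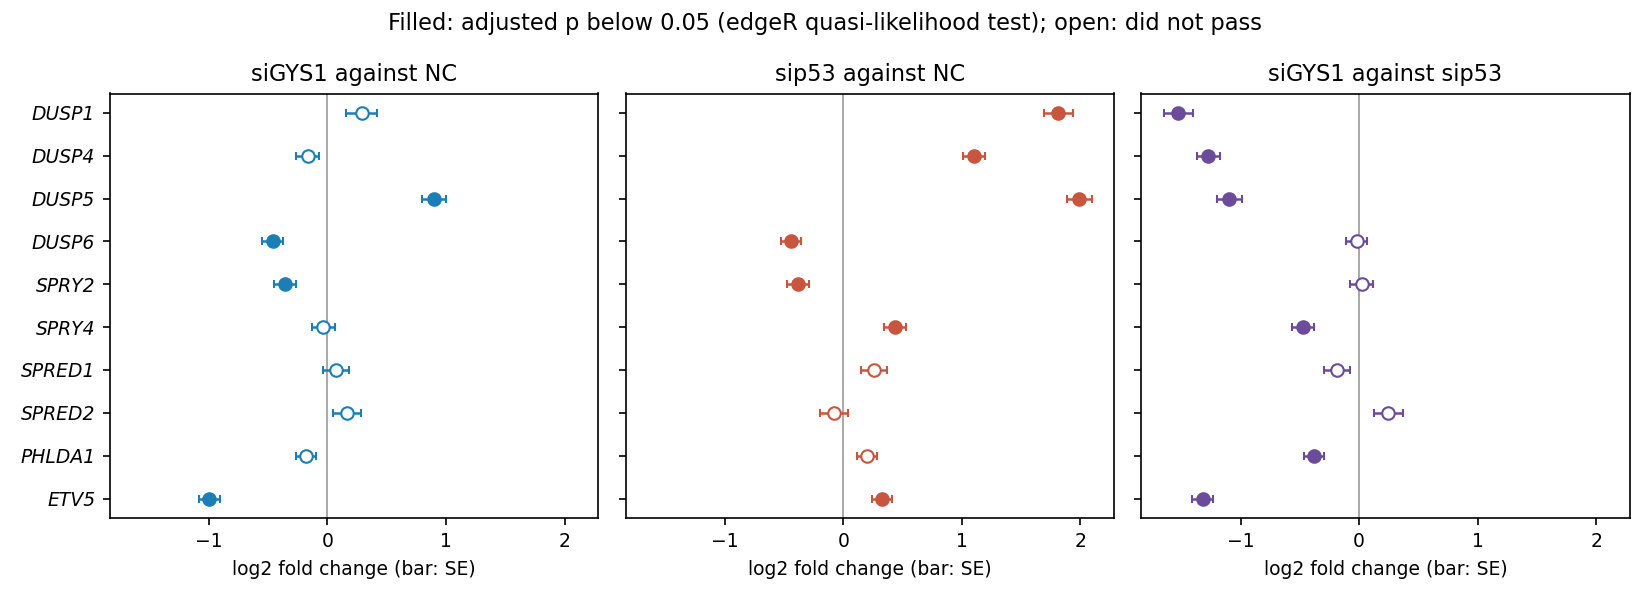
Log2 fold change of the 10 genes (horizontal axis; bar: SE) for siGYS1 against NC, sip53 against NC and siGYS1 against sip53; filled points passed at an adjusted p below 0.05. In the direct comparison 6 genes lie below 0 with filled points and none above, while DUSP6 (-0.02) and SPRY2 (0.02) lie at 0.

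The Sprouty genes differed from each other. SPRY2, an inhibitor of receptor signalling to RAS, was at 60.5 and 58.8 FPKM in NC, 43.3 and 45.7 with siGYS1, and 45.6 and 39.9 with sip53. As with DUSP6, both NC libraries were the highest and the knockdowns overlapped. SPRY2 fell to 78.0% of NC with siGYS1 (log2 -0.36, SE 0.09, adjusted p = 0.027) and to 76.9% with sip53 (log2 -0.38, SE 0.09, adjusted p = 0.008). The siGYS1 call is lost in 6 settings. In 5 of them 1 library was left out: the adjusted p was 0.107 when this was NC replicate 1, 0.124 for NC replicate 2 and 0.0573 for siGYS1 replicate 1, and 0.0586 and 0.0584 for sip53 replicates 1 and 2. The other fitted only NC and siGYS1 (0.0565). The sip53 call is lost without sip53 replicate 2 (log2 -0.29, adjusted p = 0.111). Between the knockdowns the difference was log2 0.02 (SE 0.10, adjusted p = 0.878, 95% interval -0.19 to 0.23).

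The first of the 3 RefSeq promoter windows of SPRY2 is shown beside that of DUSP1 because these genes changed in opposite directions with sip53. It is chr13:80341127-80341376 on the minus strand and overlaps no annotated exon of GENCODE 29:
SPRY2: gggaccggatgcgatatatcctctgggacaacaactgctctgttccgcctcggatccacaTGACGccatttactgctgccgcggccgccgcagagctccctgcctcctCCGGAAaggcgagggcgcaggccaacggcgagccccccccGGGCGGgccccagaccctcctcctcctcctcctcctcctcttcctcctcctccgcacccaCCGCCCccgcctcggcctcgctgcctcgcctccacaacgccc
In capitals are 1 match of TGACG (190 bases before the start), 1 of CCGGAA (142 bases, a motif in 14.5% of all windows) and 2 of GGGCGG (102 and 42 bases). The GC content was 70.4% here and 74.4% in the window of DUSP1. The other 2 windows of SPRY2 held none of the 6 motifs. The window of SPRY4, which rose with sip53 as DUSP1 did, held 1 match of TGACG (68 bases before the start) and 1 of GGGCGG (183 bases). TGACTCA (4.2% of all windows) and the CArG box (1.16%) were in no window of the 7 genes. This says only that these letters are not in these windows. Like that of DUSP6, the windows of SPRED1 and PHLDA1 lie wholly within exons of the same gene. Those of SPRY4 (170 bases) and SPRED2 (38 bases of its first window) do so in part.

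SPRY4 was at 6.90 and 6.38 FPKM in NC, 6.73 and 5.93 with siGYS1, and 8.27 and 8.93 with sip53. The NC and siGYS1 libraries overlapped, and both sip53 libraries were above them. SPRY4 rose 1.35-fold with sip53 (log2 0.44, SE 0.09, adjusted p = 0.0038), a call that held in each of the 15 alternative settings. It was at log2 -0.04 with siGYS1 (SE 0.10, adjusted p = 0.822), and the knockdowns differed by -0.47 (SE 0.09, adjusted p = 0.00302).

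Neither Sprouty-related gene passed against NC in the main fit, but SPRED1 with sip53 passed in 5 of the 15 alternative settings. SPRED1 and SPRED2 encode membrane proteins that bring neurofibromin, an inactivator of RAS, to the membrane. SPRED1 was at 11.1 and 9.99 FPKM in NC, 11.7 and 9.64 with siGYS1, and 12.1 and 11.5 with sip53. Its log2 fold change was 0.07 with siGYS1 (SE 0.11, adjusted p = 0.669) and 0.26 with sip53 (SE 0.11, adjusted p = 0.0769). Leaving out siGYS1 replicate 1 or 2 brought the adjusted p of the sip53 value to 0.0185 and 0.0102. SPRED2 was at 14.8 and 13.5 FPKM in NC, 16.8 and 13.6 with siGYS1, and 13.4 and 12.1 with sip53. It was at log2 0.17 with siGYS1 (SE 0.12, adjusted p = 0.348) and -0.08 with sip53 (SE 0.12, adjusted p = 0.605). In both genes siGYS1 replicate 1 was the higher library of its pair. Without siGYS1 replicate 2, SPRED2 passed with siGYS1 (0.34, adjusted p = 0.0232), but without siGYS1 replicate 1 it was at 0.0014 (adjusted p = 0.996). SPRED1 was at -0.07 without siGYS1 replicate 1 (adjusted p = 0.729) and at 0.23 without siGYS1 replicate 2.

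PHLDA1, a gene of the pleckstrin homology-like family that ERK signalling induces, had the highest level of the 10 in NC, at 70.7 and 68.6 FPKM. It was at 62.0 and 56.2 with siGYS1 and 75.9 and 73.6 with sip53, with no overlap between groups. Neither difference from NC passed in the main fit (log2 -0.18, SE 0.08, adjusted p = 0.159 for siGYS1, and 0.20, SE 0.08, adjusted p = 0.0742 for sip53). Of the 15 alternative settings, the siGYS1 value passed in 1 and the sip53 value in 5. For sip53 the adjusted p was 0.0398 and 0.0267 when siGYS1 replicate 1 or 2 was left out. The knockdowns differed from each other by log2 -0.38 (SE 0.08, adjusted p = 0.00524), a call lost without sip53 replicate 1 (adjusted p = 0.064).

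ETV5 was the member with the largest fall. It was at 20.8 and 19.4 FPKM in NC, 13.6 and 14.3 with siGYS1, and 27.1 and 27.7 with sip53. The groups did not overlap, with siGYS1 below NC and sip53 above it. On read counts ETV5 fell to 50.1% of NC with siGYS1 (log2 -0.998, SE 0.09, adjusted p = 0.000133), and 1.98% of all tested genes had a larger log2 fall. It rose 1.25-fold with sip53 (log2 0.32, SE 0.08, adjusted p = 0.01). Leaving out any 1 library of NC or sip53 ends that call, with adjusted p of 0.0541 and 0.0674 for NC replicates 1 and 2, and 0.0943 and 0.052 for sip53 replicates 1 and 2. Between the knockdowns the difference was log2 -1.32 (SE 0.09, adjusted p = 4.68e-06), and it held in each of the 15 alternative settings.

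The fall of ETV5 depends on the scale. On log2(FPKM + 1) with limma it was -0.50 (adjusted p = 0.00973), against -0.998 on read counts. A correction of the counts for length, which uses 1 mean length per gene and so takes no account of a length that differs between libraries, left ETV5 at -1.002 (adjusted p = 6.05e-07). The read counts were 1258 and 1247 in NC, 584 and 605 with siGYS1, and 1492 and 1444 with sip53. Dividing the count by the FPKM and the library total gives the transcript length that the authors' FPKM implies. For ETV5 it was 3386 and 3546 bases in NC, 2473 and 2361 with siGYS1, and 3069 and 2897 with sip53. The 3 groups did not overlap in this length. Its log2 ratio of siGYS1 to NC was -0.52, and 0.186% of 11802 genes with a mean of at least 1 FPKM had a ratio as low or lower. With sip53 it was -0.22 (2.75% of genes as low or lower). For the other 9 members the log2 ratios lay between -0.06 and 0.01 with siGYS1 and between -0.10 and 0.01 with sip53. GENCODE 29 lists 6 coding transcripts of ETV5, of 554 to 4111 bases, at chr3:186046308-186110318 on the minus strand. The table gives 1 row per gene, and which transcripts contributed was not tested.

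**Figure D3:**
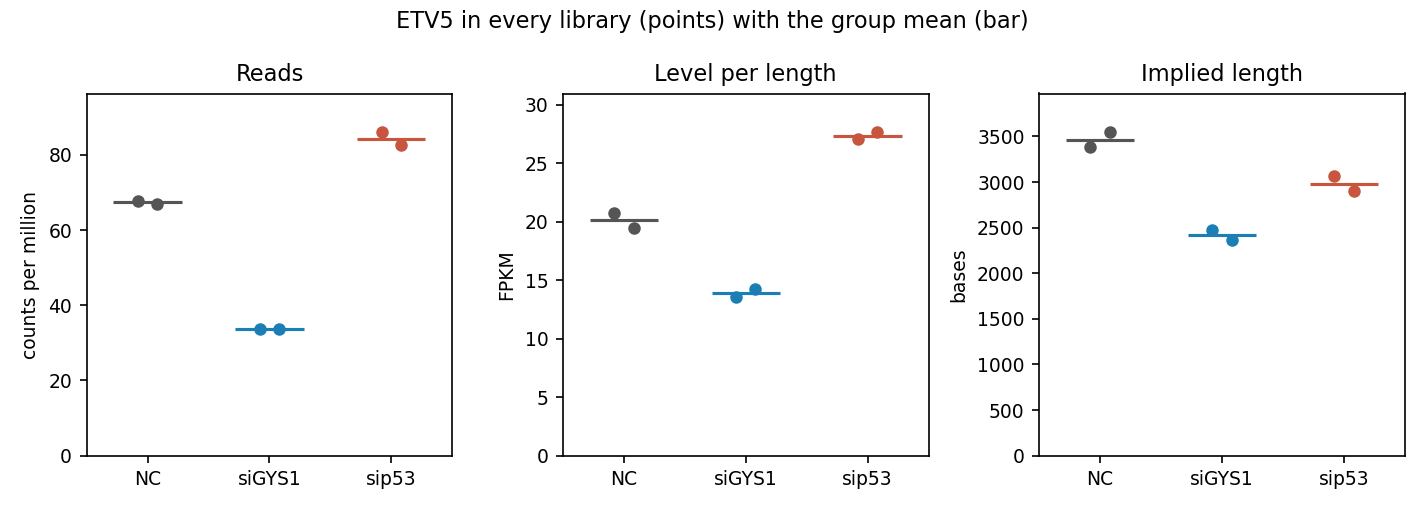
ETV5 in each library as CPM, FPKM and implied transcript length in bases (vertical axes, from 0); bars are means of 2 libraries. The siGYS1 libraries are lowest in all 3 panels, while sip53 is highest in counts and FPKM but lies between the others in length.

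Set against each other, siGYS1 and sip53 differed in 6 of the 10 genes, where 43.4% of all tested genes did. siGYS1 was lower in all 6 (20.9% of all tested genes) and higher in 0 (22.5%). CPM did not overlap for 9 of the 10 (72.1% of all tested genes). The 6 were DUSP1, DUSP4, DUSP5, SPRY4, PHLDA1 and ETV5. The 4 that did not pass were DUSP6, SPRY2, SPRED1 and SPRED2, and at an unadjusted p below 0.05 none of these was higher. Without siGYS1 replicate 1 SPRED1 was also called lower (log2 -0.33, adjusted p = 0.0228), and without siGYS1 replicate 2 SPRED2 was called higher (0.39, adjusted p = 0.00561). With sip53, beside these values, 5 of 8 tested histone genes rose and 1 fell, where 23.4% and 26.5% of all tested genes did. Many histone transcripts lack a poly(A) tail, so these genes serve as a check on the RNA that was captured. Their summed level was 240 to 266 FPKM in NC, 236 to 253 with siGYS1 and 257 to 285 with sip53. Among the epithelial markers, KRT8 and KRT18 fell with siGYS1, and KRT8, EPCAM and CDH1 fell with sip53. The epithelial and clear cell markers summed to 659 to 676 FPKM in NC, 492 to 553 with siGYS1 and 527 to 538 with sip53. Markers of other cell types moved with sip53 as well. The 3 endothelial markers in the table summed to 0.35 to 0.48 FPKM in NC, 0.31 to 0.42 with siGYS1 and 0.93 to 1.53 with sip53. Both that were tested rose with sip53, PECAM1 (log2 2.05, adjusted p = 0.00261) and CDH5 (1.51, adjusted p = 0.00607), from mean levels of 0.095 and 0.31 FPKM, while VWF was at 0.01 FPKM or lower in each library. The fibroblast markers summed to 14.1 to 14.7 FPKM in NC, 11.8 to 14.2 with siGYS1 and 7.72 to 8.83 with sip53, and COL1A1, the only one tested, fell with sip53 (-0.43, adjusted p = 0.0031). The part of RNA capture, cell state or other cell types in the values of the 10 genes was not tested.

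Close relatives of the 10 genes went both ways. The shares of all tested genes to set beside the counts of this and the next lists are 10.4% risen and 9.24% fallen with siGYS1, and 23.4% and 26.5% with sip53. Of 13 relatives (other MAP kinase phosphatase, Sprouty, SPRED, ETV and PHLDA genes), 6 rose and 2 fell with siGYS1 (median log2 0.21). With sip53, 4 rose and 4 fell (median 0.23), near the shares of all genes. SPRY1, a paralog of SPRY2, was at 47.9 FPKM in NC, 25.5 with siGYS1 and 13.0 with sip53 (means of 2). It fell with siGYS1 (log2 -0.85, SE 0.09, adjusted p = 0.000414) and with sip53 (-1.72, SE 0.10, adjusted p = 1.29e-06), and the knockdowns differed (0.87, adjusted p = 0.000101). DUSP10, a phosphatase of p38 and JNK, rose with sip53 from 4.03 to 14.2 FPKM (log2 1.93, SE 0.11, adjusted p = 1.4e-06). Its rise with siGYS1 (0.57, SE 0.12, adjusted p = 0.00974) is lost without NC replicate 1 (adjusted p = 0.0524) or NC replicate 2 (0.0518). DUSP9 and DUSP2 were at low levels. Mean FPKM of DUSP9 was 2.005 in NC and 0.565 with sip53, and that of DUSP2 was 1.435 in NC and 2.95 with siGYS1. DUSP9 fell with sip53 (-1.75, SE 0.23, adjusted p = 0.000192). DUSP2 rose with siGYS1 (1.10, SE 0.22, adjusted p = 0.00764), but missed the threshold when NC replicate 2 was left out (adjusted p = 0.0691).

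In the cascade itself, from adaptors to ERK and its RSK kinases, 6 of 25 genes rose and 0 fell with siGYS1 (10.4% and 9.24% of all tested genes). With sip53, 6 rose, at the 23.4% of all genes, and 2 fell (26.5%). The list median was 0.25 with siGYS1 and 0.18 with sip53. MAP2K1, which encodes MEK1, rose with sip53 (log2 0.90, SE 0.09, adjusted p = 3.95e-05), as did RPS6KA3 (0.54, SE 0.12, adjusted p = 0.00391). With siGYS1, MAP2K1 also rose (0.34, SE 0.09, adjusted p = 0.028), a call lost in 9 of the 15 alternative settings, and RPS6KA3 did not pass (0.25, adjusted p = 0.158). NRAS rose with siGYS1 (0.61, SE 0.10, adjusted p = 0.00328) and fell with sip53 (-0.57, SE 0.10, adjusted p = 0.0012). BRAF (0.60, SE 0.12, adjusted p = 0.00753) and the receptor adaptor gene FRS2 (0.69, SE 0.16, adjusted p = 0.0169) rose with siGYS1. On log2(FPKM + 1) with limma neither passed (0.21, adjusted p = 0.377 for BRAF, and 0.43, adjusted p = 0.205 for FRS2). FRS2 also missed the threshold without NC replicate 2 (adjusted p = 0.122), and was at 0.42 without siGYS1 replicate 1 (adjusted p = 0.0296).

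Other genes read as ERK output or as its transcription factors went both ways. Of 17, 4 rose and 2 fell with siGYS1 (10.4% and 9.24% of all tested genes). With sip53, 8 rose (23.4% of all) and 4 fell, near the 26.5% of all genes. EGR1, an immediate early factor, fell with siGYS1 (log2 -1.89, SE 0.13, adjusted p = 5.72e-05) and with sip53 (-2.22, SE 0.14, adjusted p = 2.06e-06). FOSL1, a partner of JUN in AP-1, rose with siGYS1 (0.68, SE 0.10, adjusted p = 0.00158), and so did the cyclin D1 gene CCND1 (0.67, SE 0.08, adjusted p = 0.000985). FOSL1 rose with sip53 as well (1.195, SE 0.09, adjusted p = 9.81e-06), while CCND1 did not pass there (-0.22, adjusted p = 0.0504). With sip53, FOS fell (-1.38, SE 0.16, adjusted p = 9.94e-05) and the growth factor gene HBEGF rose (1.35, SE 0.12, adjusted p = 2.47e-05). FOS also fell with siGYS1 (-0.63, SE 0.15, adjusted p = 0.0185), a call lost in 4 of the 15 alternative settings. HBEGF did not pass with siGYS1 (0.15, adjusted p = 0.471). The list median was 0.14 with siGYS1 and 0.36 with sip53.

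The phosphatases DUSP1 and DUSP4 also act on other MAP kinases, so genes of the p38 and JNK arms were read as well. Of 13, 2 rose and 5 fell with siGYS1 (10.4% and 9.24% of all tested genes), and 6 rose and 2 fell with sip53 (23.4% and 26.5%). The list median was -0.05 with siGYS1 and 0.14 with sip53. MAP2K6, a kinase of p38, fell with siGYS1 (log2 -1.49, SE 0.19, adjusted p = 0.000968), as did the p38 substrate kinase gene MAPKAPK2 (-0.70, SE 0.09, adjusted p = 0.00095). MAP2K6 fell with sip53 too (-0.82, SE 0.17, adjusted p = 0.00344), while MAPKAPK2 did not pass there (0.08, adjusted p = 0.452). MAPK8, which encodes JNK1, rose with siGYS1 (0.66, SE 0.10, adjusted p = 0.00293). It also rose with sip53 (0.32, SE 0.10, adjusted p = 0.0282), a call lost in 5 of the 15 alternative settings. JUN rose with sip53 (1.09, SE 0.09, adjusted p = 1.19e-05), and so did MAPK13 (0.97, SE 0.09, adjusted p = 3.09e-05) and MAP2K3 (0.91, SE 0.09, adjusted p = 2.74e-05). With siGYS1, JUN rose (0.35, SE 0.09, adjusted p = 0.0226) and MAP2K3 fell (-0.29, SE 0.09, adjusted p = 0.0458). These calls are lost in 8 and 10 of the 15 alternative settings. MAPK13 did not pass with siGYS1 (0.21, adjusted p = 0.15).

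**Figure D4:**
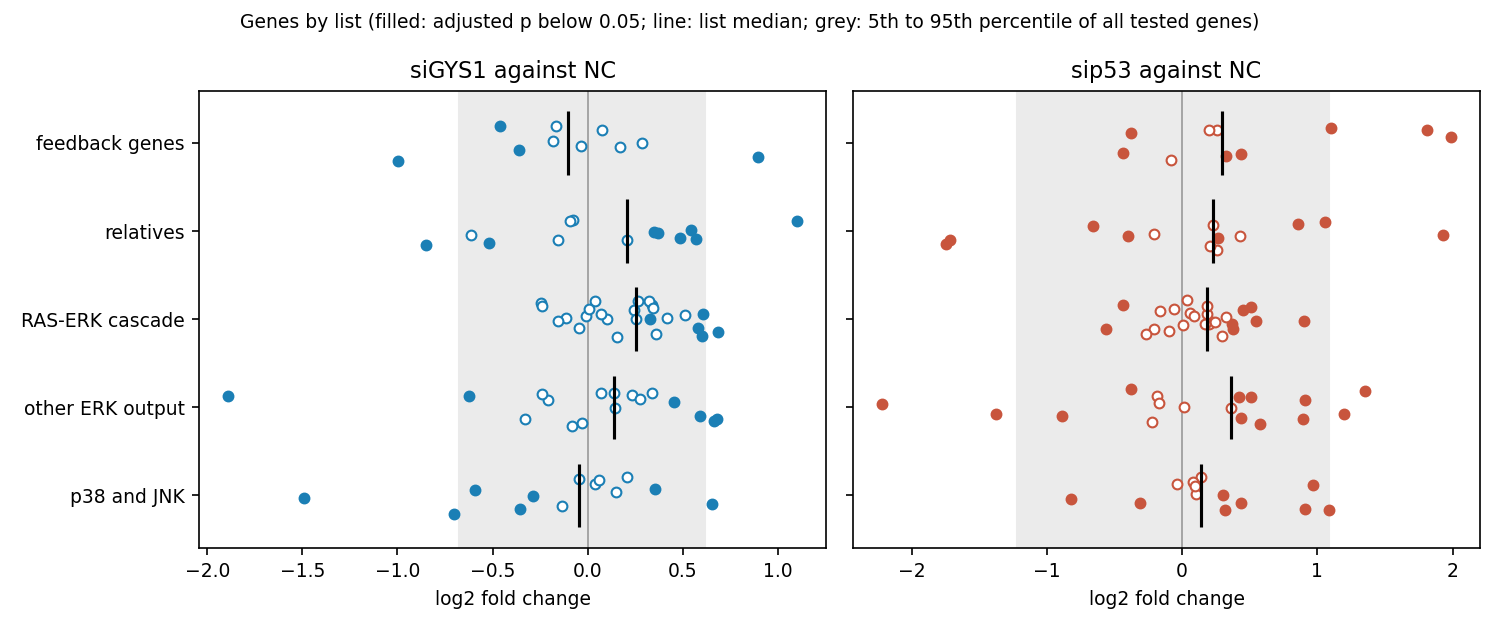
Log2 fold change against NC (horizontal axis) of the 10 feedback genes and 4 lists of related genes for siGYS1 and sip53; filled points passed, the black line is the list median and the grey band holds the 5th to 95th percentile of all tested genes. Each list has filled points on both sides of 0 except the RAS-ERK cascade with siGYS1, where 6 rose and 0 fell.

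Across the 6 libraries, the genes whose log2 CPM values were most like those of each changed member were found by Pearson's r among 11811 genes. For DUSP5 they were HSPA9 (r = 0.999) and CDA (0.998), and for DUSP1 PPP1R14A (1.000) and SBDS (0.999). For DUSP6 they were RASL11B (0.996) and CTSO (0.995), for SPRY2 VPS9D1 (0.997) and ITM2B (0.995), and for ETV5 GNA12 and SAR1B (0.999 for both). For DUSP4 they were MOXD1 (0.999) and KRTAP2-3 (0.998), and for SPRY4 ATP2C1 and GOLT1B (0.998 for both). PHLDA1, which changed only between the knockdowns, was most like COPB1 (0.998) and TMEM17 (0.997). These are descriptions over 6 libraries in 3 groups. The share of genes with an r above 0.95 ran from 0.567% for SPRY2 to 5.67% for DUSP1, and was 5.47% for DUSP5.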

How the data were processed

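The members and lists were chosen with earlier results of these data known. Per the file headers, the deposited table holds 4 measures for each library: FPKM, TPM, read counts and normalized read counts. The authors' read counts are expected counts (16.8% to 18.1% of values per library are not whole, tolerance 1e-09) and were rounded before fitting. The deposited normalized counts (a scaled signal) and the authors' TPM were not used. The submitters' processing notes name several aligners and counters and the build mm10, although the identifiers are human, so which tool made the table is unknown here.

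The edgeR 4.0.16 fit (R 4.3.3) covered all 6 libraries, with filterByExpr at a minimum count of 10 (3675 genes removed), TMM factors and glmQLFTest. The SE was taken as |log2 fold change| over the root of F. Alternatives used DESeq2 1.42.0 and limma 3.58.1. The code was tested on simulated data. Named genes are the 10 members, GYS1, the up to 3 changed genes per list and comparison with the largest change, and for likeness the 2 genes with the highest r, where the mean FPKM reached 1. Strand is not stated: antisense genes that GENCODE 29 places over DUSP1, DUSP6, SPRY4, PHLDA1 and ETV5 have no row of their own, and their reads cannot be told apart. The transcript that sip53 targets and 1 marker gene are not reported here.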

Additional observations from a re-analysis of the deposited data

How the results depend on the processing

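Each value was recomputed under 15 alternative settings. Of the members, DUSP5 and DUSP6 in both comparisons with NC, ETV5 with siGYS1, and DUSP1, DUSP4 and SPRY4 with sip53 held their calls in all of them. The labels do not say whether libraries with the same replicate number belong together. Deviations of same-numbered libraries correlated at 0.283 (NC and siGYS1), -0.0161 (NC and sip53) and 0.128 (siGYS1 and sip53). What these correlations reflect was not tested. With the replicate number as a block, 4662 genes were called for siGYS1 against NC (2602 without it), and 41 other pathway genes (27 without it). With the block, SPRED1 (adjusted p = 0.00885) and PHLDA1 (0.0234) also passed with sip53, and SPRED2 between the knockdowns (0.0172). For sip53 against NC, fitting only the 2 groups compared called 7589 genes, against 6605 in the main fit. It called 9 of the 10 members (7 up, 2 down), with SPRED1 (adjusted p = 0.00967) and PHLDA1 (0.0258) among those up. For siGYS1 against NC, fitting only NC and siGYS1 called 1577 genes. Correcting for transcript length called 4101 genes and 7 of the 10 members (2 up, 5 down), and gave SPRED1 a value of -0.11. On log2(FPKM + 1), 17 other pathway genes were called, and BRAF with sip53 was at -0.20 (-0.23 with a pseudocount of 0.1). Upper quartile scaling split the siGYS1 calls into 1061 up and 1689 down, DESeq2 into 1359 and 788, and limma on log2(FPKM + 1) into 667 and 1174, against 1379 and 1223. For sip53 that limma fit gave 1903 up and 3487 down, against 3103 and 3502.

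Leaving out 1 library at a time moved the genes called for siGYS1 against NC between 926 (without NC replicate 2) and 4260 (without siGYS1 replicate 2), for sip53 between 4271 and 7621, and between the knockdowns from 3416 to 6337. Members called ranged from 3 to 5, 5 to 9 and 5 to 7. Other pathway genes ranged from 11 to 36 for siGYS1 against NC and 25 to 45 between the knockdowns. Values near 0 changed sign: with siGYS1 against NC, SPRY4 ranged from -0.11 to 0.052, SPRED1 from -0.071 to 0.23 and DUSP9 from -0.21 to 0.064, and SPRY2 between the knockdowns from -0.069 to 0.12. The lone library left in a group is assumed to vary like the others. In the main fit all groups share an estimate of the spread of each gene, so each comparison also draws on the third group. The replicates did not differ equally. Their chi-square per degree of freedom, relative to counting error, was 8.64 in NC, 15.8 with siGYS1 and 3.41 with sip53. The cause of the shifts between settings was not tested. With 2 libraries a group, differences near the SE of about 0.1 on the log2 scale are not resolved. Some larger ones did not pass either, such as DUSP1 with siGYS1 (log2 0.29) and SPRED1 with sip53 (0.26).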
